A study of Mus musculus with 6 samples.

Results

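The interleukin 1 family described here comprises 9 genes, fixed by name: the ligands Il1a, Il1b, Il18 and Il33, the receptor antagonist Il1rn, and the receptor genes Il1r1, Il1r2, Il1rap and Il1rl1. All 9 were among the 54532 genes of the count table, and 6 of them passed the filter on low counts and belonged to the 13157 genes tested. Il1a, Il1b and Il1rl1 had too few reads for that test. Counts came from 6 Smart-seq2 libraries, a method that makes full-length cDNA from little RNA, of dissociated dorsal epidermis from C57BL/6 mice aged 4 weeks, with no genetic change or drug named for either group. The NCAM-enriched group held 3 libraries of DAPI-negative cells labelled as Merkel cells, which were taken up on anti-PSA-NCAM beads and then sorted by flow cytometry for NCAM, a surface protein of Merkel cells. The bulk skin group held 3 libraries of DAPI-negative cells sorted without that stain. Each library was made from 500 sorted cells.

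Interleukin 1 signalling is an early alarm system of barrier tissues. The agonists IL-1 alpha and IL-1 beta bind the receptor encoded by Il1r1, which then recruits the accessory chain encoded by Il1rap and signals through MyD88 and IRAK kinases to NF-kappaB. Il1rn encodes an antagonist that occupies the receptor without signalling, and Il1r2 a decoy receptor that binds the agonists but has no signalling domain. IL-33 is a nuclear protein released from damaged barrier cells and is sensed by the receptor ST2, the product of Il1rl1, again with the accessory chain, while IL-18 uses a receptor pair of its own. Keratinocytes are a well-known source of several of these proteins, and resident immune cells of the epidermis carry many of the receptors.

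The libraries differed in depth and in the cells they sampled. Totals ran from 1343190 counts in NCAM-enriched replicate 2 to 4481830 in bulk skin replicate 2, so that 1 count was worth 0.773 and 0.216 normalised CPM (reads of a gene relative to the effective library size). Of 10 Merkel cell markers, 5 (Atoh1, Sox2, Pou4f3, Krt20 and Chga) were called higher in the NCAM-enriched group and none lower, at an adjusted p of at most 0.05 in edgeR's quasi-likelihood test, against 1.04% of all genes tested that were called higher. Krt20, a keratin of Merkel cells, had 349, 176 and 247 counts there against 47, 71 and 44 in bulk skin. Markers of suprabasal keratinocytes were also called higher, in 8 of 11 cases, so the NCAM-enriched libraries carried markers of both cell types. Of 9 hair follicle markers 8 were tested, with Krt17 called higher and Lgr6 lower. Their summed level, mostly of Krt17 and Krt79, was 12098, 6287 and 28839 CPM against 2234 to 2891 in bulk skin. Of 7 basal keratinocyte markers, 0 were called in either direction. Of the immune markers, 8 of 9 of T and NK cells and 11 of 11 of Langerhans and myeloid cells were called lower. Over all genes tested, 1.55% were. The summed level of the T and NK cell list was 5.85, 169 and 53.1 CPM in the NCAM-enriched libraries and 3374 to 3590 in bulk skin. Of these NCAM-enriched sums, 4.78, 166 and 40.0 CPM were of Thy1, the gene of that list that was not called. The summed level of the Langerhans and myeloid list was 202, 55.6 and 365 CPM against 11111 to 19500. NCAM-enriched replicate 2 stood apart, with a summed level of fibroblast markers of 33003 CPM, against 363 and 41.7 in the other NCAM-enriched libraries and 10356 to 18198 in bulk skin. Most of that sum was Col1a1 (11884 CPM) and Col1a2 (15390 CPM), which with Pdgfra (71.1 CPM) lay above every bulk skin library. Col3a1 (4839 CPM) lay within the bulk skin range, and Dcn (774 CPM) and Lum (44.8 CPM) lay below it.

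The members lie in a few places of the genome (GRCm38, GENCODE M21). Il1r2 (chr1:40074079-40125231), Il1r1 (chr1:40225080-40317257) and Il1rl1 (chr1:40429570-40465415) are neighbours on the plus strand of chromosome 1. Il1rn (chr2:24336853-24351494) lies on the plus strand of chromosome 2 beside the IL-36 genes, while Il1a (chr2:129299610-129309972) and Il1b (chr2:129364570-129371139) lie together on the minus strand of the same chromosome, far from it. Il18 (chr9:50554827-50581840), Il1rap (chr16:26581704-26730117) and Il33 (chr19:29925114-29960718) stand alone on their chromosomes, all on the plus strand. Of its exonic bases, Il1a shares 11.2% with the annotated gene Gm14023, Il1rap 4.86% with Gm20319 and Il1b 1.31% with Il1bos. Reads of such overlapping parts cannot be told apart by strand in Smart-seq2.

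RefSeq promoters of 300 bases, 250 before the start site and 50 from it, were available for all 9 members, in 14 entries. They were searched on both strands for the AP-1 motif TGANTCA, a response element of Jun and Fos proteins, for a consensus NF-kappaB motif, and for the TATA box TATAAA, a core promoter element. The AP-1 motif and the TATA box do not overlap each other in the sequences shown. The AP-1 motif was present in 7.81%, the NF-kappaB motif in 0.411% and the TATA box in 13.6% of 32851 promoters of that length. Among the members, Il1a held both, with the TATA box starting at -32 and the AP-1 motif at -12 from the start site, and Il1rn held an AP-1 motif at -141 of the promoter that lies furthest upstream. The letters of the TATA box also occurred in Il1b (-31), Il18 (-175), both promoters of Il33 (-203 and -29) and another promoter of Il1rn (14). Those of Il18 and that promoter of Il1rn matched on the opposite strand, as TTTATA. Neither the AP-1 motif nor the TATA box occurred in Il1r1, Il1r2, Il1rap or Il1rl1. The NF-kappaB motif was in none of the 14 member promoters, which says little at a share of 0.411% over all promoters. Looser forms of it were not searched. Shown here are the promoter of the decoy receptor and the downstream promoter of Il33, the tested members with the largest log2 fold changes, and those of the agonist Il1a, which was nearly without reads, and of its antagonist Il1rn, which was well covered. Capitals mark the AP-1 motif or the TATA box, and the sequences are from the strand of the gene in GRCm38.p6.
Il1r2, chr1:40085843-40086142, plus strand: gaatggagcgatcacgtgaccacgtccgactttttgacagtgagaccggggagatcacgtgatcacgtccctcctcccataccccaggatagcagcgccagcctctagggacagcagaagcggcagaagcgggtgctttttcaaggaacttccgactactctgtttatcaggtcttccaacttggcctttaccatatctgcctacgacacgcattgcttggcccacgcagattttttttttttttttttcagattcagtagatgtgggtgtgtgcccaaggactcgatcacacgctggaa
Il33, chr19:29945540-29945839, plus strand: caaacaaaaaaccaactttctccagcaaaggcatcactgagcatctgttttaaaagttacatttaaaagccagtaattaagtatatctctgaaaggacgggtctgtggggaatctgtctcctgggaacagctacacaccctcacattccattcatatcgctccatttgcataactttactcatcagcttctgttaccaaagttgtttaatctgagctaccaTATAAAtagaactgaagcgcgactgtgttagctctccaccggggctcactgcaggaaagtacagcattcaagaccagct
Il1a, chr2:129309923-129310222, minus strand: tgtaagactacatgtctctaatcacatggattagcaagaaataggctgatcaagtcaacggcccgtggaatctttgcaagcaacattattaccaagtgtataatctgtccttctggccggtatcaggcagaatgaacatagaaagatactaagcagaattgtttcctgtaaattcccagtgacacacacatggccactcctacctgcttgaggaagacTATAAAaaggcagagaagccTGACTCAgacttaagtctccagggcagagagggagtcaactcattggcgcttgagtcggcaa
Il1rn, chr2:24336610-24336909, plus strand: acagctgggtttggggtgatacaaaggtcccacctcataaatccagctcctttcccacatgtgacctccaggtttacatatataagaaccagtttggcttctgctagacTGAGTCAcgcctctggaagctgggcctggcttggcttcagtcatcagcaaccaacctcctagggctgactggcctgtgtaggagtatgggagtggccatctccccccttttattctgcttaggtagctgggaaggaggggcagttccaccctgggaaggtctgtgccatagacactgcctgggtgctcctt
A motif match is only a description of the letters. The Il1r2 start site of RefSeq lies inside the longer gene model of GENCODE.

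The question the design asks of these genes is how their RNA differed in the NCAM-selected cells from that in the unselected ones. Il33 and Il1r2 had lower counts in every NCAM-enriched library than in any bulk skin library, while Il1rn and Il1r1 had almost the same mean in both groups. None of the 6 tested members was called higher and none lower by edgeR's quasi-likelihood test, with Benjamini-Hochberg adjustment over all 13157 genes, where 1.04% of genes were called higher and 1.55% lower. At an unadjusted p under 0.05, 2 of the 6 were lower (Il33 and Il1r2) and 0 higher, where 10.2% of all genes tested were lower. Groups that did not overlap, with the NCAM-enriched libraries lower, were seen for 2 of the 6 tested members and for 19.3% of all genes tested. All 6 fitted log2 fold changes were below 0, with a median of -2.13 over the 3 tested ligand and antagonist genes and -1.04 over the 3 tested receptor genes, against -0.07 over all genes tested. Il18, Il33 and Il1r2 passed the filter through the bulk skin libraries, so these signs and medians are a description only.

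**Figure D1:**
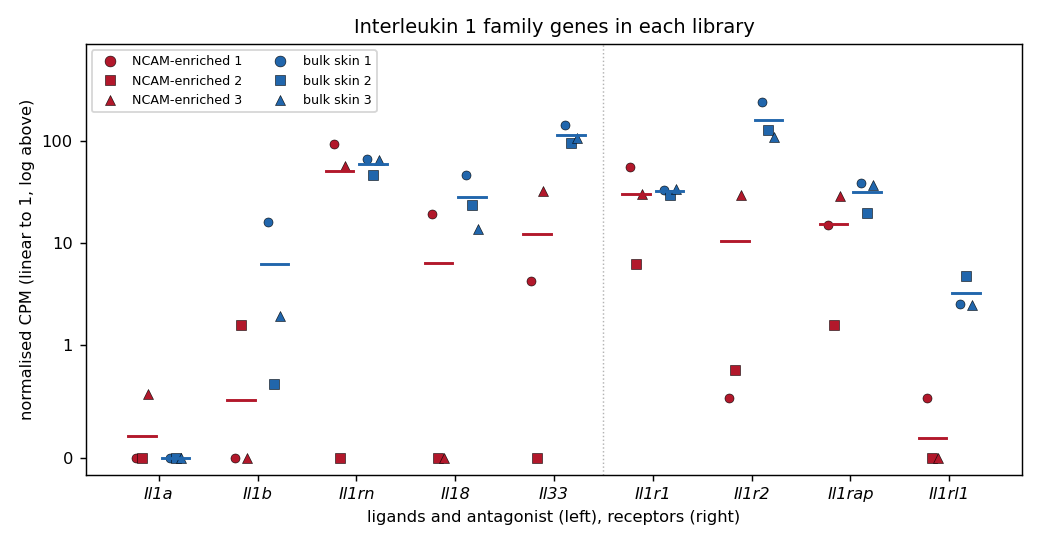
Normalised CPM of each family gene in each of the 6 libraries, on an axis that is linear up to 1 and logarithmic above. Points are libraries, NCAM-enriched in red and bulk skin in blue, and bars are the means of 3 libraries. The bulk skin points of Il33, Il1r2 and Il1rl1 all lie above the NCAM-enriched points, and those of Il1rn and Il1r1 lie within their spread.

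Among the ligands, Il33 showed the clearest separation. Its counts were 8, 0 and 115 in NCAM-enriched replicates 1 to 3 and 462, 446 and 389 in bulk skin, or 4.25, 0 and 32.6 CPM against 143, 96.4 and 107 CPM. The highest NCAM-enriched library thus remained below the lowest bulk skin library, and the NCAM-enriched libraries differed widely among themselves. The means were 12.3 ± 17.7 CPM (SD, n = 3) and 116 ± 24.7 CPM, and the log2 fold change was -3.16 ± 1.13 (SE), with a 95% interval from -5.72 to -0.61 and an adjusted p of 0.167 in edgeR. NCAM-enriched replicate 2 would have held 149 counts of Il33 at the mean level of bulk skin and held none. Without NCAM-enriched replicate 3, the library with most Il33 reads in that group, the log2 fold change was -5.66 with an edgeR adjusted p of 0.0253.

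Il18, which like Il1b is made as a precursor and cut by caspase-1, had reads in all bulk skin libraries but in only NCAM-enriched replicate 1. Its counts were 36, 0 and 0 against 150, 110 and 50, or 19.1, 0 and 0 CPM against 46.6, 23.8 and 13.7 CPM. The groups overlapped, since NCAM-enriched replicate 1 lay above bulk skin replicate 3. The log2 fold change was -2.13 ± 1.68 (edgeR adjusted p = 0.559), with a 95% interval from -5.94 to 1.68. Without NCAM-enriched replicate 1 the log2 fold change was -9.52 (edgeR adjusted p = 0.0574), a value set by libraries at 0, and across the 13 alternatives, none of which called Il18, it ran from -9.52 to -1.56. At the bulk skin mean, NCAM-enriched replicates 2 and 3 would have held 36.3 and 98.7 counts of Il18.

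Il1rn, the antagonist, was the most strongly represented member in 2 NCAM-enriched libraries by counts and was missing from the other. Counts were 177, 0 and 203 against 215, 216 and 239, or 94.1, 0 and 57.6 CPM against 66.8, 46.7 and 65.5 CPM. NCAM-enriched replicate 1 was above every bulk skin library, and replicate 2 had no read where 77.2 would have been held at the bulk skin mean. The means were 50.6 ± 47.4 and 59.7 ± 11.2 CPM, with a log2 fold change of -0.23 ± 1.14 (edgeR adjusted p = 0.943). Its 95% interval, from -2.81 to 2.35, leaves room for sizeable differences either way, and without NCAM-enriched replicate 2 the fold change was 0.33.

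The agonists themselves were scarcely covered in any library. Il1a had 2 counts in NCAM-enriched replicate 3 and 0 in all others, so both groups were at or under the floor of 3 counts and no fold is given. Il1b had 0, 2 and 0 counts in the NCAM-enriched libraries and 52, 3 and 7 in bulk skin, most of them in bulk skin replicate 1. Pooled over each group and scaled by depth, Il1b was 18.1-fold lower in the NCAM-enriched group, with an exact counting interval from 4.80 to 153 that covers counting error only. The groups overlapped, as 1.55 CPM in NCAM-enriched replicate 2 was above 0.649 CPM in bulk skin replicate 2. In an edgeR fit of every gene with a read, the adjusted p was 0.483 for Il1a and 0.390 for Il1b. Markers of neutrophils, known producers of IL-1 beta, were near 0, with a summed level of at most 18.5 CPM in any library. Langerhans and myeloid markers summed to 19500, 13179 and 11111 CPM in bulk skin replicates 1 to 3 and to 202, 55.6 and 365 CPM in the NCAM-enriched libraries. The part of these cells in the Il1b counts was not tested.

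Among the tested receptors, Il1r2 had the log2 fold change furthest from 0. The decoy receptor had 1, 1 and 105 counts in the NCAM-enriched libraries and 786, 601 and 399 in bulk skin, or 0.531, 0.773 and 29.8 CPM against 244, 130 and 109 CPM. Nearly all NCAM-enriched reads came from replicate 3, and even that library lay below the lowest bulk skin library. The means were 10.4 ± 16.8 and 161 ± 72.5 CPM, and the log2 fold change was -3.86 ± 1.20, with a 95% interval from -6.58 to -1.14 and an edgeR adjusted p of 0.117. Without NCAM-enriched replicate 3 the log2 fold change was -7.95 and the edgeR adjusted p 0.00462. In that fit Il33 and Il1r2 were the 2 members called lower, where 4.90% of the genes tested were. The T and NK cell and the Langerhans and myeloid marker lists were lower in the same 3 libraries as Il1r2 and Il33. Of 7 basal keratinocyte markers 0 were called, with a median log2 fold change of 0.07. Fibroblast markers, with 0 of 6 called, summed to 363, 33003 and 41.7 CPM against 10356 to 18198 in bulk skin. The part of any of these cells in the 2 differences was not tested. Fewer cells of a type and less RNA per cell cannot be told apart in pooled cells.

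The call on Il33 and Il1r2 depended on the tool. DESeq2 called both lower (adjusted p = 0.0335 for Il33 and 0.00904 for Il1r2), where it called 7.05% of all genes tested lower. limma-voom also called both (adjusted p = 0.0312 and 0.0213), with 6.45% of all genes called lower. edgeR on all genes with at least 1 count called both too (adjusted p = 0.000143 and 1.21e-07), where 2.66% of 27884 genes were called lower. Across the 13 alternatives tried, the log2 fold change of Il33 ran from -5.66 to -2.61 and its adjusted p from 0.000143 to 0.368, and those of Il1r2 from -7.95 to -3.32 and from 1.21e-07 to 0.346.

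Il1r1, the signalling receptor, had closely similar means in the groups. Counts were 104, 8 and 106 against 106, 138 and 123, or 55.3, 6.18 and 30.1 CPM against 32.9, 29.8 and 33.7 CPM. The bulk skin libraries fell within a narrow band, with NCAM-enriched replicate 1 above it, replicate 2 below it and replicate 3 inside it. The means were 30.5 ± 24.5 and 32.2 ± 2.05 CPM, and the log2 fold change was -0.07 ± 0.79 (edgeR adjusted p = 0.976) with a 95% interval from -1.86 to 1.72. Without NCAM-enriched replicate 2 it was 0.39.

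Il1rap, the accessory chain shared by the IL-1 and IL-33 receptors, was lower in mean but overlapped. Its counts were 28, 2 and 103 against 125, 92 and 134, or 14.9, 1.55 and 29.2 CPM against 38.8, 19.9 and 36.7 CPM. NCAM-enriched replicate 3 lay above bulk skin replicate 2, and the other NCAM-enriched libraries lay below all of bulk skin. The log2 fold change was -1.04 ± 0.97 (edgeR adjusted p = 0.628), with a 95% interval from -3.24 to 1.16.

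Il1rl1, the gene of the IL-33 receptor ST2, was sparse throughout. It had 1, 0 and 0 counts in the NCAM-enriched libraries and 8, 22 and 9 in bulk skin, and the groups did not overlap. The pooled counts were 22.7-fold lower in the NCAM-enriched group, with an exact counting interval from 3.85 to 921, and its adjusted p in the edgeR fit of every gene with a read was 0.428. Mast cells are known for ST2, and the summed level of 8 mast cell markers was 2009, 7.73 and 10.2 CPM in the NCAM-enriched libraries against 449, 2127 and 1860 in bulk skin. NCAM-enriched replicate 1, with its 1 read of Il1rl1, would have held 6.09 at the bulk skin mean. Of 8 genes of type 2 innate lymphoid and regulatory T cells, 5 were tested. Of these 1, Il7r, was called lower (21, 1 and 20 counts against 695, 609 and 793), where 1.55% of all genes tested were. Icos (0, 0 and 39 counts against 711, 769 and 706) and Il13 (5, 0 and 0 against 67, 121 and 99) did not overlap either. They were lower in the NCAM-enriched group, at edgeR adjusted p of 0.0513 and 0.129. Over all genes tested, 19.3% were lower there without overlap. Areg overlapped (edgeR adjusted p = 0.659). Gata3, which keratinocytes also express, had higher levels in every NCAM-enriched library than in any bulk skin library (log2 fold change 1.14, edgeR adjusted p = 0.158), and Foxp3 and Ctla4 were at 0 in every library. The part of these cells in the Il1rl1 difference was not tested.

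The balance between decoy and signalling receptor can be read within a library, where depth cancels for genes with enough reads. The log2 ratio of Il1r2 to Il1r1 counts, with 0.5 added to each, was -6.12, -2.50 and -0.01 in the NCAM-enriched libraries and 2.88, 2.12 and 1.69 in bulk skin. Il1r2 reads thus outnumbered those of Il1r1 in each bulk skin library and in no NCAM-enriched library. Per kb of exon, however, the log2 ratio was -4.38, -0.76 and 1.72 against 4.62, 3.86 and 3.43, so the level of Il1r2 exceeded that of Il1r1 in NCAM-enriched replicate 3 as well. The mean ratios were -2.88 ± 3.07 and 2.23 ± 0.60, a difference of -5.11 on the log2 scale that is given without a test. The log2 ratio of Il1rap to Il1r1 was -1.87, -1.77 and -0.04 against 0.24, -0.58 and 0.12, and its bulk skin values overlapped the highest NCAM-enriched value. Ratios with Il1a or Il1b rest on too few reads to be compared. In NCAM-enriched replicates 1 and 2 the ratio of Il1r2 to Il1r1 rests on 1 count of Il1r2, so its size depends on depth.

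Between genes, levels were compared as CPM per kb of exon. In bulk skin the order of the mean level per kb was Il1r2 (84.4 ± 38.0), Il33 (40.0 ± 8.57), Il18 (27.2 ± 16.3), Il1rn (10.8 ± 2.03), Il1r1 (5.05 ± 0.323), Il1b (3.27 ± 4.51), Il1rap (2.80 ± 0.914) and Il1rl1 (0.469 ± 0.191), with Il1a at 0. Neighbours in that order overlapped between Il33 and Il18, between Il1r1 and Il1b and between Il1b and Il1rap, and the others did not. In the NCAM-enriched group the highest mean levels per kb were those of Il1rn (9.13 ± 8.57), Il18 (6.18 ± 10.7), Il1r2 (5.43 ± 8.82), Il1r1 (4.79 ± 3.86) and Il33 (4.26 ± 6.15), and all neighbours in that order overlapped. The length is that of all annotated exons together, so it can understate the level of genes with long alternative exons.

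**Figure D2:**
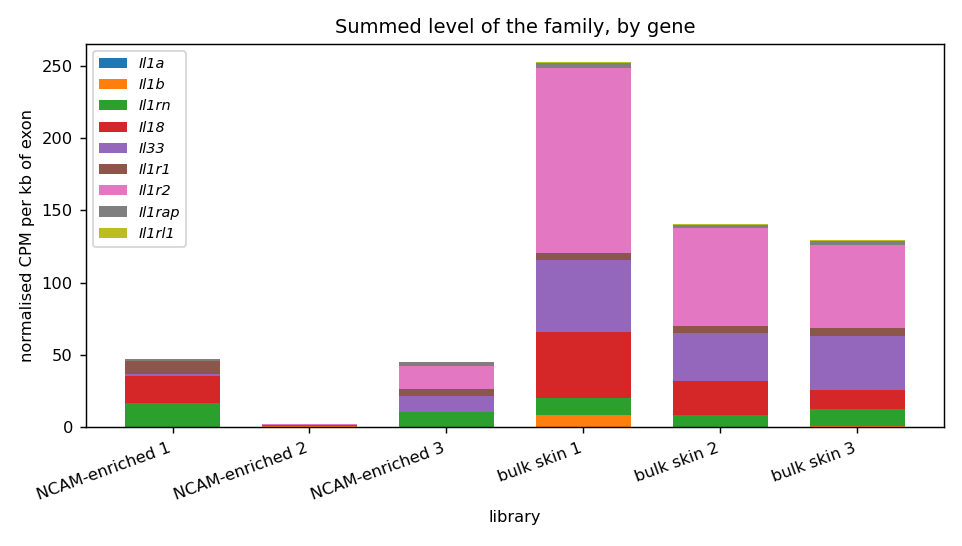
Normalised CPM per kb of exon of the 9 family genes, stacked by gene, in each of the 6 libraries. The bulk skin libraries reach 252, 140 and 129, with Il1r2 as the thickest layer, and the NCAM-enriched libraries 47.4, 2.32 and 44.9.

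Summed over the 9 genes, the level per kb was 47.4, 2.32 and 44.9 in the NCAM-enriched libraries and 252, 140 and 129 in bulk skin. Il1r2 made up 50.7, 48.5 and 44.3% of that sum in the bulk skin libraries and 0.588, 17.4 and 34.8% in NCAM-enriched replicates 1 to 3. The NCAM-enriched libraries did not resemble each other in composition. Replicate 1 was led by Il18 (39.2%) and Il1rn (35.9%), and replicate 3 by Il1r2, Il33 (25.2%) and Il1rn (23.2%). Replicate 2 held 13 family reads in all, 8 of them of Il1r1, and only Il1r1 exceeded 3 counts there.

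The chromosome 1 cluster places 3 members beside related receptors, and 6 receptor genes lie within 477.6 kb. Between Il1r1 and Il1rl1 lies Il1rl2, which encodes the IL-36 receptor, and beyond Il1rl1 follow Il18r1 and Il18rap, which encode the chains of the IL-18 receptor. Il18r1, which is named here after its values were seen for the sake of a complete cluster, had 0, 0 and 35 counts against 124, 111 and 116, and Il18rap had 1, 0 and 27 against 218, 197 and 244. Both lay lower in all NCAM-enriched libraries, as did 19.3% of all genes tested. Their log2 fold changes were -3.13 (95% interval from -6.53 to 0.27) and -4.27 (from -6.98 to -1.56), with edgeR adjusted p of 0.306 and 0.0874. Il18rap was called lower by DESeq2 (adjusted p = 0.00156), and both by limma-voom (adjusted p = 0.0300 for Il18r1 and 0.0147 for Il18rap) and by edgeR without NCAM-enriched replicate 3 (adjusted p = 0.0261 and 0.0130). Il18rap was also called by edgeR without NCAM-enriched replicate 2 (adjusted p = 0.0399). In these fits, in that order, 7.05%, 6.45%, 4.90% and 4.12% of all genes tested were called lower. Both genes passed the filter on low counts through the bulk skin libraries, so these calls are a description only. Il1rl2 had 154, 27 and 203 counts against 165, 227 and 218 and a log2 fold change of 0.01 ± 0.57 (edgeR adjusted p = 0.997). Within the cluster, then, Il1r1 and Il1rl2 in the middle had similar means in both groups, and the genes on either side had reads mainly in bulk skin.

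**Figure D3:**
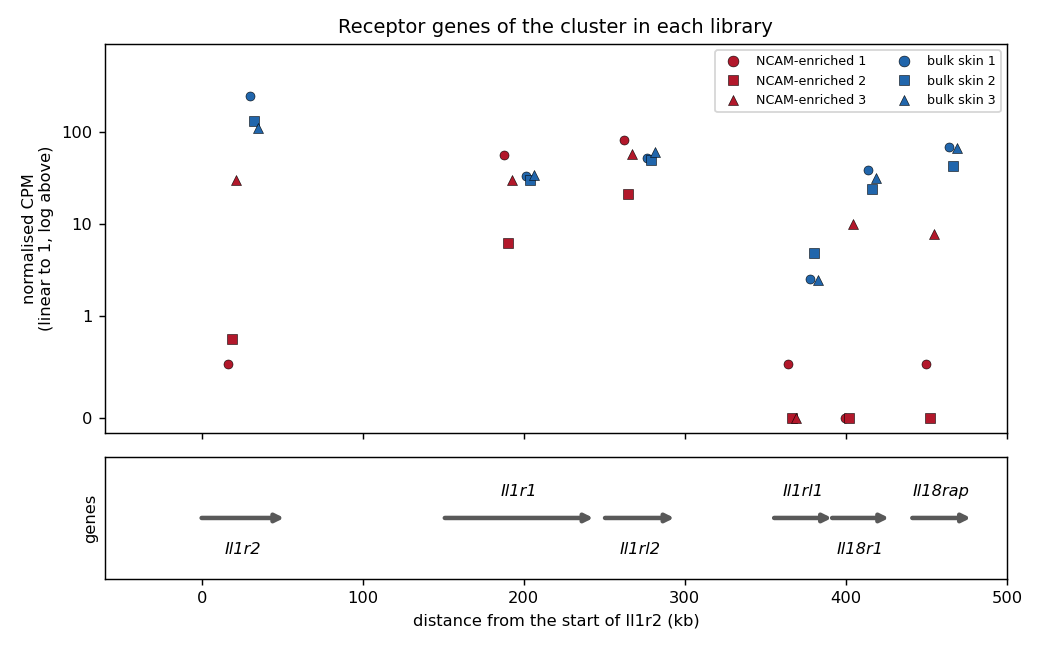
Upper panel, normalised CPM of the 6 clustered receptor genes in each library, on an axis that is linear up to 1 and logarithmic above, placed at the middle of each gene with the groups set slightly apart. Lower panel, the gene bodies as arrows in the direction of transcription, by distance in kb from the start of Il1r2. Red and blue points mix at Il1r1 and Il1rl2 and are apart at the other 4 genes.

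The wider pathway was taken as 68 genes in 5 lists, of which 49 were tested and 7 had no read in any library. Of the 49, 1 was called higher and 0 lower by edgeR, where 1.04% and 1.55% of all genes tested were, and 12 had an unadjusted p under 0.05 in either direction, as did 18.9% of all genes tested. The median log2 fold change was -0.31, against -0.07 over all genes tested. The called gene was Il36rn, listed in the table under its older name Il1f5, which encodes the antagonist of the IL-36 receptor and lies at chr2:24276954-24283426, in the same cluster as Il1rn. It had 229, 107 and 628 counts against 53, 61 and 65, or 128 ± 48.0 CPM against 15.8 ± 2.38 CPM. Every NCAM-enriched library lay above every bulk skin library, replicate 2 included, in which most family members were nearly absent. The log2 fold change was 3.01 ± 0.48 (edgeR adjusted p = 0.0196). DESeq2 and limma-voom called it higher as well, where they called 5.02% and 2.67% of all genes tested higher. Leaving out bulk skin replicate 1, 2 or 3 ended the edgeR call at an adjusted p of 0.178, 0.165 or 0.149, with log2 fold changes between 2.85 and 3.06. In those fits 0, 0 and 1 of all genes tested were called higher, so the lost call says little about Il36rn. Suprabasal keratinocyte markers had summed levels of 37324, 14349 and 19346 CPM in the NCAM-enriched libraries against 1572 to 1760 in bulk skin. Those of hair follicle markers were 12098, 6287 and 28839 CPM against 2234 to 2891. For basal keratinocyte markers they were 9898, 7580 and 31095 CPM against 12341 to 16552. The part of these cells in the Il36rn difference was not tested.

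**Figure D4:**
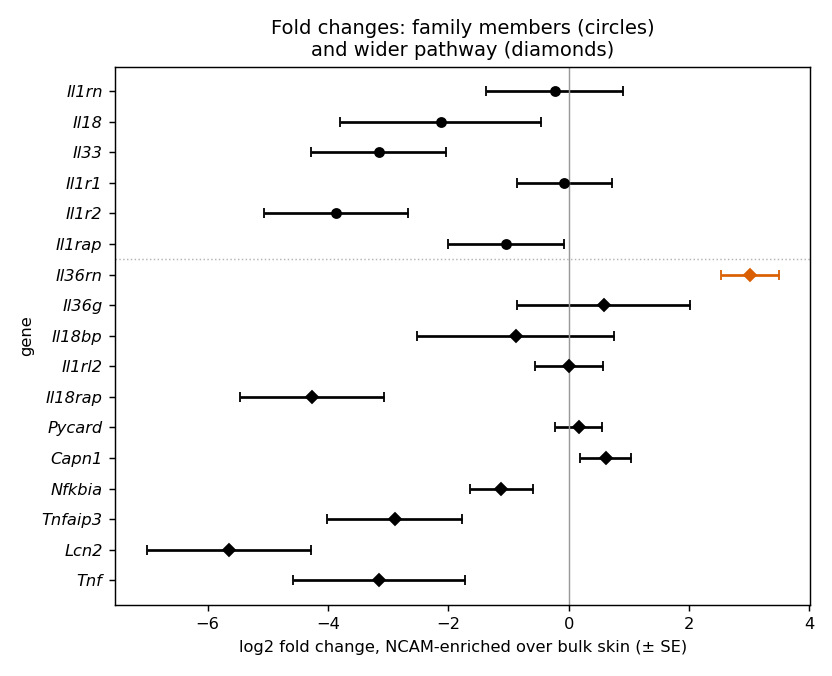
Log2 fold change of NCAM-enriched over bulk skin from edgeR, with its SE as bars, for the 6 tested family members (circles) and the named genes of the wider pathway (diamonds). Il36rn, in orange, is the called gene at 3.01, and Il33 and Il1r2 lie at -3.16 and -3.86.

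No other gene of the pathway lists was called by edgeR. Of the 6 further ligands and binding proteins, 3 were tested, Il36rn among them. Il36g, an IL-36 agonist of keratinocytes, had 64, 0 and 33 counts against 60, 23 and 20 with a log2 fold change of 0.58 ± 1.44 (edgeR adjusted p = 0.880). Il18bp, which neutralises IL-18, had 0, 0 and 37 counts against 31, 17 and 26 (edgeR adjusted p = 0.836). Of 6 further receptor genes, 4 were tested, with a median log2 fold change of -1.63. Of 18 genes of precursor processing and release, 11 were tested, with a median of -1.47. Those with the highest mean CPM, not corrected for length, were Pycard, the inflammasome adaptor, and Capn1, a calpain, at log2 fold changes of 0.17 ± 0.39 and 0.62 ± 0.42 (edgeR adjusted p = 0.872 and 0.489).

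All 24 signalling genes from the receptor to NF-kappaB were tested, and their median log2 fold change was -0.01, with 12 above and 12 below 0. Nfkbia, the inhibitor that retains NF-kappaB in the cytoplasm, had a log2 fold change of -1.12 ± 0.53 (edgeR adjusted p = 0.295). Tnfaip3, which encodes the feedback inhibitor A20, had 170, 0 and 289 counts against 1127, 1663 and 2126 and a log2 fold change of -2.89 ± 1.12 (edgeR adjusted p = 0.205). Both had lower levels in every NCAM-enriched library than in any bulk skin library, as did 19.3% of all genes tested. Of 14 genes known to be induced by IL-1, 7 were tested. Several of these passed the filter through bulk skin, where they had most of their reads, so their common sign is not read. Among the untested, S100a8 and S100a9, which encode calprotectin, had their most reads in NCAM-enriched replicate 3 (17 and 39 counts, with at most 4 in any other library). Lcn2, an iron-sequestering defence protein, had 12, 0 and 0 counts against 387, 191 and 569 (log2 fold change -5.65 ± 1.37, edgeR adjusted p = 0.0661), and was called lower by DESeq2 (adjusted p = 0.000200), by limma-voom (adjusted p = 0.0171) and by edgeR without NCAM-enriched replicate 1, 2 or 3 (adjusted p = 0.0196, 0.0365 and 0.0427). Tnf, an inflammatory cytokine, had 60, 0 and 1 against 282, 625 and 231 (log2 fold change -3.15 ± 1.42, edgeR adjusted p = 0.277), and was called lower by limma-voom (adjusted p = 0.0240) and by edgeR without NCAM-enriched replicate 1 (adjusted p = 0.0135). Tnfaip3 was called lower without NCAM-enriched replicate 2 (edgeR adjusted p = 0.0107), and Nfkbia without replicate 3 (edgeR adjusted p = 0.0472). These genes are also expressed by immune cells, whose markers were lower in the same libraries, and the part of those cells was not tested. By DESeq2, 8 of the 49 genes were called lower, and by limma-voom 7, where 7.05% and 6.45% of all genes tested were. Most of the genes so called passed the filter through the bulk skin libraries, so these counts are a description only.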

How the data were processed

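Per the labels, the authors used STAR, the GRCm38 build and featureCounts, and the deposited values are whole, unnormalized counts. Annotation release and strand setting are not given in sources used here. Library totals were 1343190 to 4481830. Reads carry no molecular identifiers, so exact 95% counting intervals and the floor (3 counts, over a group) cover counting error alone. The paper describes sorting both populations in triplicate into a plate, and no source says that replicates were separate animals. The p-values thus measure the spread between these libraries, which may be technical.

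Groups followed the labels. In edgeR 4.0.16 (R 4.3.3), genes were filtered with filterByExpr, scaled by TMM and tested by quasi-likelihood, with Benjamini-Hochberg adjustment over 13157 genes and a call at an adjusted p up to 0.05. The common coefficient of variation was 0.744. SE is the size of the log2 fold change over the square root of F. Alternatives were DESeq2 1.42.0, limma-voom (limma 3.58.1), RLE and upper-quartile factors, every gene with at least 1 count, robust dispersion, a replicate block, another pseudocount for ratios, and leaving out each library. Gene models came from GENCODE M21 (54495 of 54532 gene IDs matched) and promoters from RefSeq. Plots used matplotlib 3.10.9 (Python 3.11.15).

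The members and gene lists were chosen with earlier results of these data known. Named were all members, each called pathway gene and the 2 most abundant uncalled genes of each pathway list. Il18r1, Gsdma, S100a8, S100a9 and the marker genes were named after their values were seen.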

Additional observations from a re-analysis of the deposited data

How the results depend on the processing

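No member was called higher under any of the 13 alternatives. The number of members called lower was 0 with edgeR and 2 with edgeR on all genes of at least 1 count, with DESeq2 and with limma-voom, and 0 to 2 when a library was left out, with 2 only without NCAM-enriched replicate 3. For the wider pathway, genes called higher numbered 1 with edgeR, 2 on all genes of at least 1 count (with Gsdma), and 0 to 2 with a library left out. Those called lower numbered 0 with edgeR, 7 on all genes of at least 1 count, 8 with DESeq2, 7 with limma-voom, and 0 to 8 with a library left out (2, namely Lcn2 and Tnf, without NCAM-enriched replicate 1, 8 without replicate 2 and 6 without replicate 3, where 1.57%, 4.12% and 4.90% of all genes tested were called lower). Most pathway genes called lower by DESeq2 and limma-voom passed the filter through bulk skin, so those counts are a description only. Without a bulk skin library at most 0.141% of all genes tested were called lower and at most 1 gene higher. A call lost there thus says little about the gene. With the replicate number as a replicate block, 0 members and 0 pathway genes were called in either direction, Il36rn having an adjusted p of 0.0506. Libraries of the same number did not deviate together (correlations of 0.0226, 0.000250 and -0.00436 across genes), so the numbers were not treated as pairs.

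With a library left out, the log2 fold change ran from -1.01 to 0.33 for Il1rn, from -0.80 to 0.39 for Il1r1, from -0.97 to 1.43 for Il36g, from -0.43 to 0.37 for Il1rl2 and from -0.17 to 0.40 for Pycard, so each of these changed sign. Il36g was also at -0.49 with limma-voom and -0.34 with the replicate block, and Il1rl2 at -0.079 with upper-quartile factors, -0.072 on all genes of at least 1 count, -0.012 with limma-voom and -0.19 with the replicate block. None of the 5 was called in any of these fits, and the causes were not tested. A pseudocount of 1 changed no direction of the ratios. Depth limits Il1a, Il1b and Il1rl1, which had at most 3 counts in the NCAM-enriched group.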
